A study of Mus musculus with 18 samples.

Results

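The desaturases and elongation enzymes of polyunsaturated fatty acids comprised 9 genes here: Fads1, Fads2, Fads3, Elovl1, Elovl2, Elovl5, Elovl6, Hsd17b12 and Tecr. The set was proposed with earlier results of these data known, its probes were found by gene symbol in the array annotation, and all 9 genes were present, of 31709 gene names on the array, by 11 of its 39429 non-control probes. Fads2 and Elovl1 had 2 probes each and the other genes 1 each.

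Mammals cannot make alpha-linolenic acid, but the liver can turn it into the longer n-3 fatty acids EPA and DHA. Desaturases add double bonds and elongases add carbon units, in alternation. Fads2, the delta-6 desaturase, takes the first step, Elovl5 elongates its product, Fads1, the delta-5 desaturase, acts next, and Elovl2 makes the longest chains. DHA is made from these chains by further steps, of which shortening in peroxisomes is the last. Each round of elongation is completed by shared enzymes of the endoplasmic reticulum, among them the ketoacyl-CoA reductase Hsd17b12 and the enoyl-CoA reductase Tecr. In mouse liver, dietary polyunsaturated fatty acids are known for restraining several genes of this pathway.

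RNA from whole liver of male mice of the inbred strain C57BL/6J was measured after 5 weeks on a high-fat diet made with linseed oil (8 mice) or with palm oil (10 mice). The linseed fat held 66.7% polyunsaturated fatty acids (49.7% alpha-linolenic acid), 22.5% monounsaturated and 9.7% saturated fatty acids, against 8.8% polyunsaturated, 34.8% monounsaturated and 55.6% saturated fatty acids in the palm fat. Both diets supplied 51.1% of energy as lipid, 32.1% as carbohydrate and 16.7% as protein, and the mice of both groups had been assigned to them at random at 8 weeks of age and were 13 weeks old at the end. No group on a low-fat diet was analysed here, mice were housed together, and the labels do not tell which mice shared a cage. The comparison asks whether the genes that process alpha-linolenic acid differ in expression between a fat rich in it and a fat rich in saturated fatty acids.

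Each liver had its own 1-colour array, and values are log2 signal minus the log2 75th percentile of that array (117 to 204 intensity units), so that 0 is the brightness of the 75th percentile spot. Between 17282 and 22473 probes per array were well above background, a call of the image software. That software also marked 238 to 1703 spots per array as uneven or as outliers, most of them on slides 4 and 5 of the 5 slides. Marked spots were left out, except where a result is said to keep them. All 10 hepatocyte markers were well above background, at a mean of 7.53 to 8.22 in linseed livers and 7.67 to 8.08 in palm livers. Precision depends on the number of arrays, on the spread between livers and on how far a spot stands above background. In whole liver, fewer cells of a type and less RNA per cell cannot be told apart.

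Every member probe is 60 bases long. Sequences are printed for the Fads2 probe that lay on the other side of 0 from its partner, for the Hsd17b12 probe, which had the smallest p of the members, and for the probe of Tecr, the last enzyme of the same cycle. They are written 5′ to 3′ as the array files give them.
Fads2, A_66_P130115: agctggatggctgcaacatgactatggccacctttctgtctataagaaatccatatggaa
Hsd17b12, A_52_P243599: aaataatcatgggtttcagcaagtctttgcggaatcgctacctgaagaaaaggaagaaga
Tecr, A_51_P278550: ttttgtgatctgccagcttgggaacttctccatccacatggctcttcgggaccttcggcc
In the mm9 coordinates of the array files the Fads2 probe lies on the minus strand of chromosome 19 at 10163229 to 10163288, and the Hsd17b12 probe on the minus strand of chromosome 2 at 93873719 to 93873778. The Tecr probe covers 86096302 to 86096454 on the minus strand of chromosome 8, that is 153 genomic bases for 60 bases of probe, so part of the genomic stretch is not in the probed sequence. Whether the probes lie in exons of the coding part or in untranslated regions was not looked up, since no mm9 gene models were used here.

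None of the 9 genes passed the diet comparison. Over all 19529 probes tested with limma, 0.753% passed a Benjamini-Hochberg adjusted p of 0.05 (147 probes, 115 higher and 32 lower on linseed oil), against 0 of the 9 member probes that could be tested with marked spots left out; 1 of these 9 had an unadjusted p under 0.05, as had 10.6% of all probes. With marked spots kept all 11 member probes were tested and 0 passed, against 0.907% of 20405 probes. The median difference over the 9 genes, each by its brightest probe with marked spots kept, was 0.0011 on the log2 scale, beside 0.0021 over all probes tested. Each difference below is the linseed mean minus the palm mean in log2 units, with limma's SE after the ± sign. The plot of values per array shows the groups overlapping for every probe, least so for Hsd17b12.

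**Figure D1:**
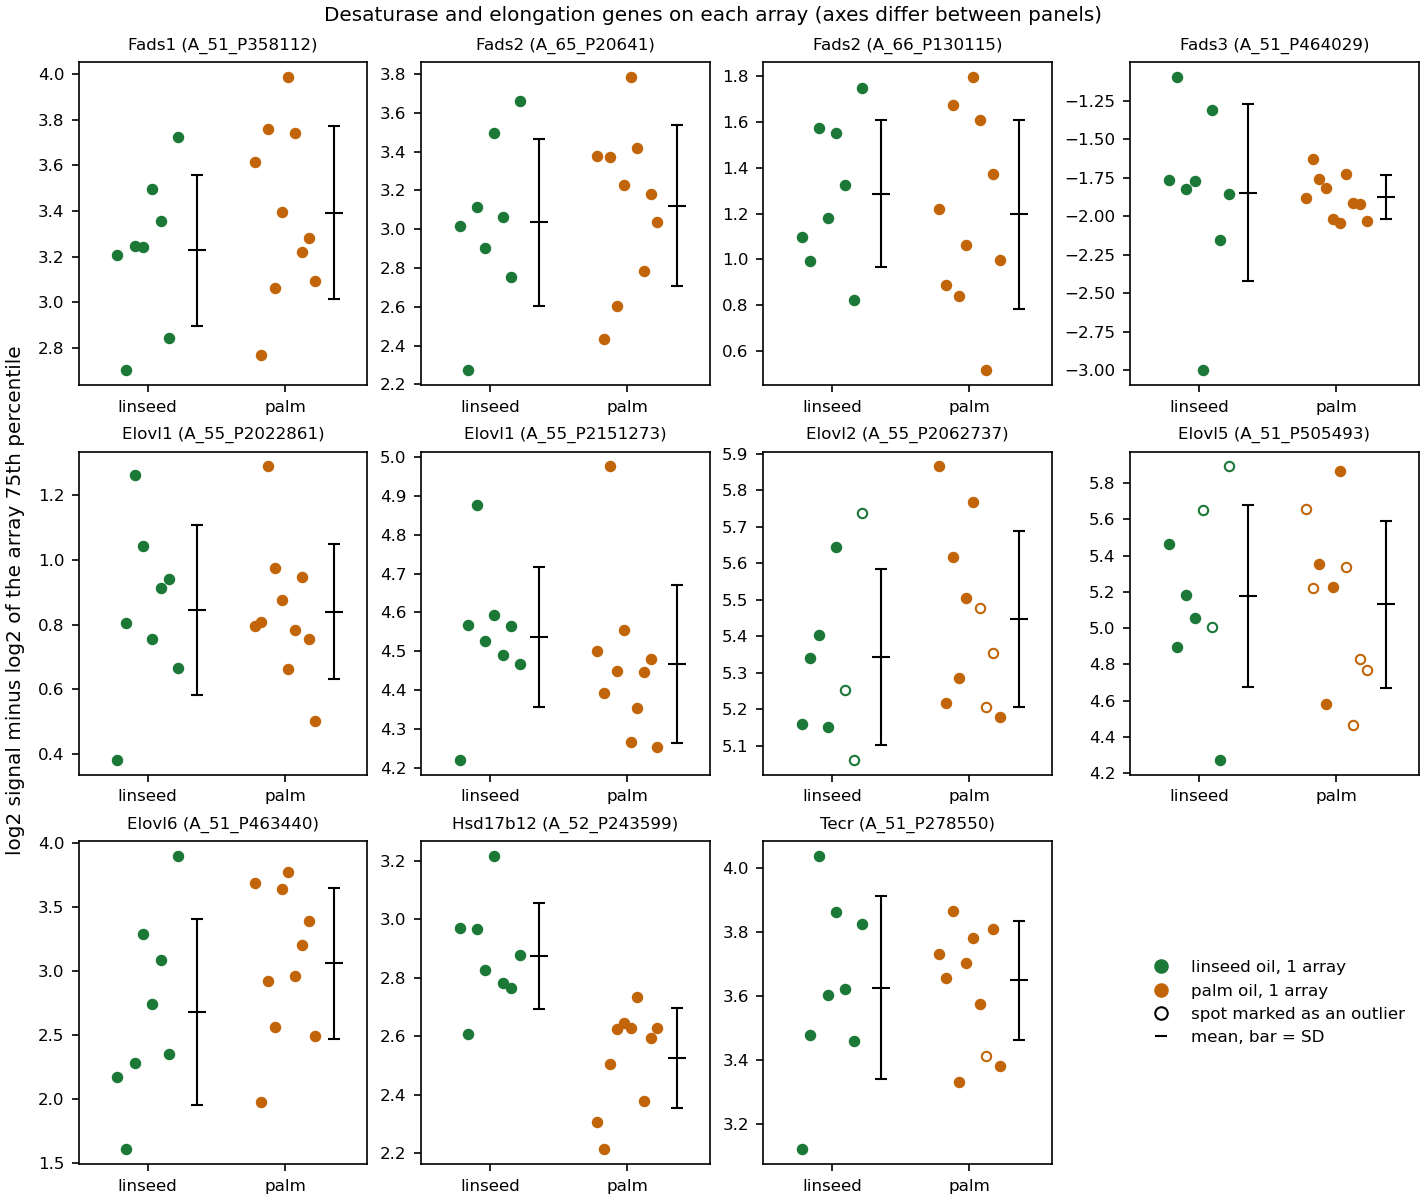
Log2 signal relative to the array's 75th percentile (vertical axes, which differ between panels) for the 11 member probes, with 1 point per liver, linseed left of palm. Hollow points are spots marked by the image software, and the black line and bar give the mean and SD, without marked spots except for Elovl2 and Elovl5. For Hsd17b12, 7 of the 8 linseed points lie above every palm point.

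Fads1, the delta-5 desaturase, had a lowest, median and highest value of 2.70, 3.24 and 3.72 in linseed livers, against 2.77, 3.34 and 3.99 in palm livers. The groups overlapped almost fully, and no linseed liver lay above every palm liver. The difference was −0.16 ± 0.16 (adjusted p = 0.789), with a 95% interval of 0.71-fold to 1.13-fold for linseed over palm. Its probe lies on chromosome 19 at 10270530 to 10270589 (mm9, plus strand).

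Fads2, the delta-6 desaturase and the gate of the pathway, was read by 2 probes 25.4 kb apart on chromosome 19. The brighter probe, A_65_P20641 at 10137760 to 10137819, had 2.27, 3.04 and 3.66 as its lowest, median and highest value in linseed livers, against 2.43, 3.20 and 3.79 in palm livers. Its difference was −0.087 ± 0.19 (adjusted p = 0.917). The dimmer probe, whose sequence is printed above, had 0.82, 1.25 and 1.75 in linseed livers and 0.52, 1.14 and 1.80 in palm livers, a difference of 0.089 ± 0.17 (adjusted p = 0.903). Both probes thus had overlapping groups, with differences on opposite sides of 0 and each smaller than its SE. The brighter minus the dimmer probe averaged 1.75 ± 0.24 in linseed livers and 1.92 ± 0.23 in palm livers (SD, n = 8 and 10), and the diets differed in it by −0.18 (exact two-sided permutation test over all 43758 splits, p = 0.135, 0.251 adjusted over the 2 probe pairs). The disagreement in sign was thus not shown to exceed the spread between livers, and the test does not show that the probes agree. The 95% intervals for linseed over palm were 0.72-fold to 1.24-fold for the brighter probe and 0.83-fold to 1.36-fold for the dimmer probe.

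Fads3, a relative of both genes that acts on sphingoid bases, had −3.00, −1.79 and −1.10 in linseed livers, against −2.04, −1.90 and −1.63 in palm livers. Linseed livers lay on both sides of the palm range: 2 were above every palm liver, and linseed replicate 5, on which the spot was not well above background, was the lowest of all. The SD was 0.57 in linseed livers and 0.14 in palm livers (n = 8 and 10), and the difference was 0.029 ± 0.18 (adjusted p = 0.975). The probe lies on chromosome 19 at 10132641 to 10132700, and in the RefSeq gene order Fads3, Fads2 and Fads1 are neighbours.

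Elovl5, which elongates the product of Fads2, had 3 of 8 linseed and 6 of 10 palm spots marked, too many for the comparison, and is given with marked spots kept. Its lowest, median and highest values were 4.27, 5.12 and 5.89 in linseed livers, against 4.46, 5.22 and 5.86 in palm livers. The lowest and the highest liver were both linseed livers, on slides 4 and 5. The difference was 0.047 ± 0.21 (adjusted p = 0.965), an interval of 0.76-fold to 1.41-fold. On the spots that were not marked, the mean was 4.98 ± 0.44 in linseed livers (SD, n = 5) and 5.26 ± 0.53 in palm livers (SD, n = 4), so the sign of the small difference turned. The probe is on chromosome 9 at 77832205 to 77832264.

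Elovl2, the elongase of the longest polyunsaturated chains, had 3 marked spots in each group and is also given with marked spots kept. It had 5.06, 5.30 and 5.74 in linseed livers, against 5.18, 5.42 and 5.87 in palm livers, a difference of −0.10 ± 0.11 (adjusted p = 0.802) and an interval of 0.79-fold to 1.10-fold. Only 2 of the 8 linseed livers lay above the palm median. Without the marked spots the means were 5.34 ± 0.20 in linseed livers (SD, n = 5) and 5.49 ± 0.27 in palm livers (SD, n = 7). The probe is on chromosome 13 at 41277884 to 41277943.

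Elovl6 elongates palmitate to stearate and so serves saturated and monounsaturated fatty acids. It had 1.61, 2.54 and 3.90 in linseed livers, against 1.97, 3.08 and 3.77 in palm livers, and 3 of 8 linseed livers lay above the palm median. The difference of −0.38 ± 0.29 was the farthest from 0 of the 11 probes, yet it did not pass (adjusted p = 0.703), and its interval reached from 0.50-fold to 1.17-fold. Its SD within a diet, 0.65, was the widest of the members, beside a median of 0.24 over all tested probes, and its 18 livers spanned 2.29 log2 units. The probe is on chromosome 3 at 129341248 to 129341307.

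Elovl1, an elongase of saturated and monounsaturated very long chains, had 2 probes on chromosome 4. The brighter probe, at 118105163 to 118105222, had 4.22, 4.55 and 4.88 in linseed livers and 4.25, 4.45 and 4.98 in palm livers, a difference of 0.070 ± 0.094 (adjusted p = 0.852). The dimmer probe, at 118104741 to 118104800, had 0.38, 0.86 and 1.26 in linseed livers and 0.50, 0.80 and 1.29 in palm livers, a difference of 0.0062 ± 0.11 (adjusted p = 0.993). Both probes had nearly the same range on each diet. They were not shown to differ from each other in the diet difference (0.064, exact permutation p = 0.251, and 0.251 after adjustment). The intervals were 0.92-fold to 1.20-fold and 0.86-fold to 1.18-fold.

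Hsd17b12 makes the first reduction of every elongation round. It had 2.61, 2.85 and 3.22 as its lowest, median and highest value in linseed livers, against 2.21, 2.61 and 2.74 in palm livers. Of the 8 linseed livers 7 lay above every palm liver, and 5 of the 10 palm livers lay below every linseed liver. The means were 2.88 ± 0.18 in linseed livers and 2.53 ± 0.17 in palm livers (SD, n = 8 and 10), 1.27-fold apart with an interval of 1.12-fold to 1.44-fold. The difference of 0.35 ± 0.086 had an unadjusted p of 0.000683 in limma, rank 194 of the 19529 probes, and missed the threshold after adjustment (adjusted p = 0.0687).

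The call for Hsd17b12 turned on how the slides were treated. Each of the 5 slides carried both diets, and most of the leading component of what diet left unexplained followed slide (a share of 0.945 of its variance). When limma took slide as a fixed block, Hsd17b12 passed at 0.38 ± 0.072 (adjusted p = 0.0264, with 0.906% of all probes called), and with slide as a random block at 0.36 ± 0.076 (adjusted p = 0.0201, with 1.3% called). Within slides 1 to 5 the differences were 0.53, 0.33, 0.58, 0.22 and 0.27, and on 5 of 5 slides every linseed liver lay above every palm liver, as the plot by slide shows. No other member did so on more than 2 slides. The gene also passed when probes had to be well above background on all 18 arrays (adjusted p = 0.0488) and with a trended, robust variance (adjusted p = 0.047). Counting the block fits also with marked spots kept, it passed in 6 of 38 settings, and the difference was 0.30 to 0.43 over all of them. The mean of the 2 adipocyte markers above background, Cfd and Fabp4, ranged from 0.85 to 3.53 in linseed livers and from −1.42 to 2.37 in palm livers, while the other 4 of 6 (Adipoq, Lep, Plin1 and Retn) were not tested because too few arrays had them above background. Neither of the 2 was called (Cfd 2.54 ± 0.88, adjusted p = 0.264). Across the 18 livers this mean had r = 0.528 with Hsd17b12, given as a description, and its part in the difference of Hsd17b12 was not tested.

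**Figure D2:**
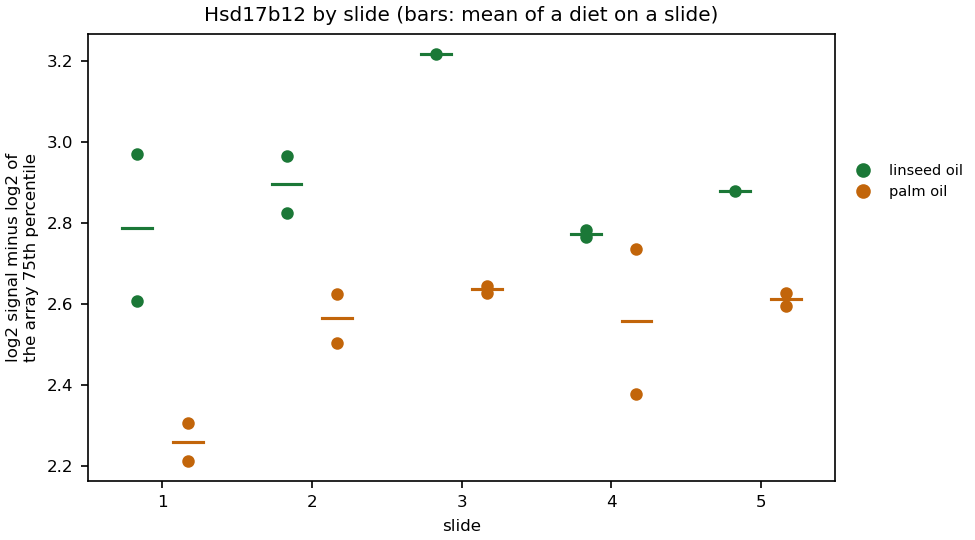
Hsd17b12 log2 signal relative to the array's 75th percentile (vertical axis) on each of the 5 slides (horizontal axis), with 1 point per liver, linseed left of palm, and a bar at the mean of each diet on a slide. On every slide the linseed points lie above the palm points, by 0.22 to 0.58 between the means.

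Tecr, the enoyl-CoA reductase that ends each round, had 3.12, 3.61 and 4.04 in linseed livers, against 3.33, 3.70 and 3.87 in palm livers. The palm range lay inside the linseed range, with 1 palm spot marked and left out. The difference was −0.022 ± 0.11 (adjusted p = 0.969), an interval of 0.83-fold to 1.16-fold.

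The other members kept to the same side of the threshold with slide as a block, as the plot of differences shows. In the fit with slide as a fixed block, the brighter Fads2 probe was at −0.017 ± 0.17 (adjusted p = 0.978), Elovl6 at −0.29 ± 0.28 (adjusted p = 0.69) and Fads1 at −0.13 ± 0.16 (adjusted p = 0.778). Within slides the diets did not differ one way for these genes. Fads1 was lower on linseed oil on 4 slides and 0.54 higher on slide 5, where the single linseed liver was also 1.09 above the 2 palm livers for Elovl5, 0.96 for Elovl6, 0.55 for the brighter Fads2 probe and 0.47 for Elovl2. That liver, linseed replicate 8, was the highest linseed liver for Fads1, Fads2, Elovl2, Elovl5 and Elovl6. Without it, the differences were further below 0 for Fads1 (−0.24) and Elovl6 (−0.56), and without linseed replicate 2 they were nearer to 0, at −0.089 for Fads1 and −0.23 for Elovl6. Over all 38 settings Fads1 lay between −0.25 and −0.089 and Elovl6 between −0.68 (without slides 4 and 5) and −0.18 (without slide 1), and neither passed in any of them.

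**Figure D3:**
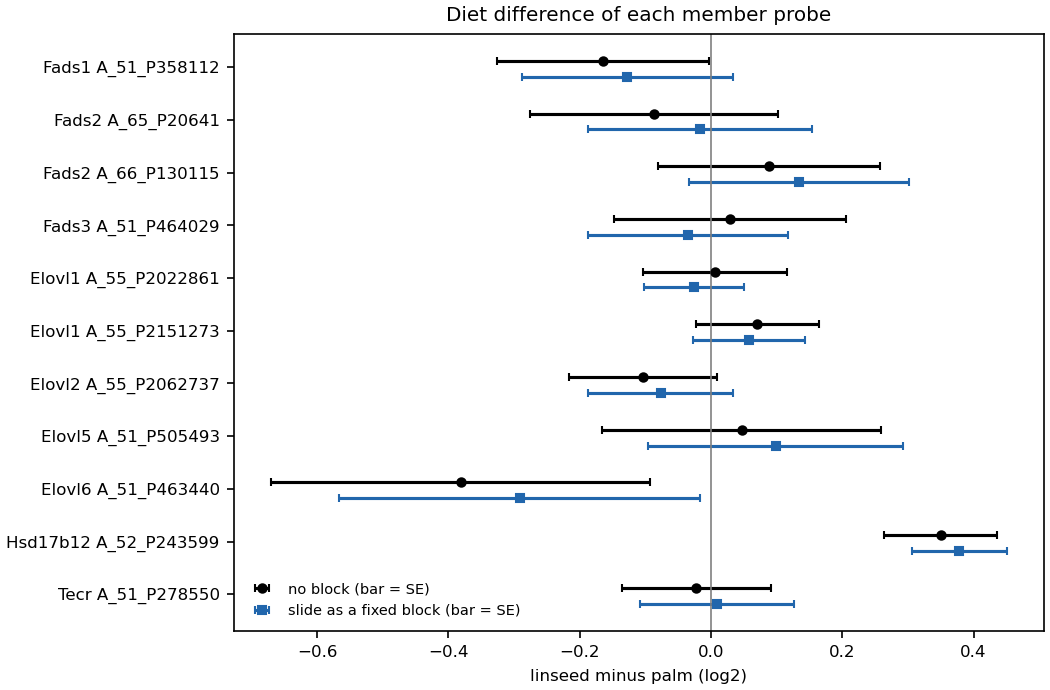
Difference between linseed and palm livers on the log2 scale (horizontal axis) for each member probe, without a block (black) and with slide as a fixed block (blue), with bars of 1 SE. Hsd17b12 lies at 0.35 without and 0.38 with the block, and the other probes lie within 2 SE of 0 in both fits.

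The genes of n-3 synthesis varied together from liver to liver. Correlations between members were computed with marked spots kept and were not repeated without them. Marked spots numbered 3 linseed and 6 palm for Elovl5, 3 on each diet for Elovl2, and 1 palm for Tecr. Across the 18 livers, Pearson's r between Fads1 and Fads2 was 0.939 (rho 0.942, permutation p = 1e-05 for each, the smallest that 100000 resamples can give, and 0.00036 adjusted over 36 gene pairs). Among Fads1, Fads2, Elovl2 and Elovl5 the 6 pairs had r of 0.711 to 0.939 and rho of 0.715 to 0.942. The same pairs had r of 0.676 to 0.958 within linseed livers and 0.697 to 0.942 within palm livers. After slide means were subtracted they had r of 0.729 to 0.949, and without the 2 livers farthest from the median 0.674 to 0.904. Elovl6 followed Fads1 (r = 0.764, rho 0.730, adjusted p = 0.00162 and 0.00534) and Fads2 (r = 0.737, rho 0.686, adjusted p = 0.00312 and 0.0092), and after slide means were subtracted the pair with Fads1 passed (r = 0.709, adjusted p = 0.0288) and that with Fads2 did not (r = 0.618, adjusted p = 0.116).

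Of the 36 pairs 11 passed, all with r above 0, and 7 passed after slide means were subtracted: the 6 pairs above and Fads1 with Elovl6. Without slides 4 and 5 the count was 3 over 11 livers (Fads1 with Fads2, Fads1 with Elovl6 and Fads2 with Elovl5), and it was 9 without slide 1 and 9 without slide 3. The pairs behind these counts differed. Without slide 1 no pair of Elovl6 passed (with Fads1, r = 0.613, permutation p adjusted to 0.0756). Tecr then passed with Fads2 (adjusted p = 0.04) and Elovl5 (adjusted p = 0.0345), pairs not among the 11. Over all 18 livers, the passing pairs that involved other genes were Elovl2 with Tecr (r = 0.634, rho 0.711, permutation p adjusted to 0.0196 and 0.0063), Elovl1 with Tecr (r = 0.616, rho 0.562, adjusted p = 0.0223 and 0.048) and Elovl2 with Elovl6 (r = 0.590, rho 0.544, adjusted p = 0.0327 and 0.054). Without the 2 livers farthest from the median, r was 0.668, 0.425 and 0.440 in these 3 pairs. The 3 pairs did not pass after slide means were subtracted. Elovl1 also moved with the 75th percentile of the array (r = −0.809) and with the mean of the hepatocyte markers (r = 0.753), as Tecr did less closely (r = −0.508 and 0.516), and the part of these in the pair was not tested beyond a change of scaling. With quantile normalization in place of the 75th percentile, 9 of the 36 pairs passed, and the pairs of Tecr with Elovl1 (r = 0.466, adjusted p = 0.118) and with Elovl2 (r = 0.556, adjusted p = 0.0556) did not. Fads3 and Hsd17b12 were in no passing pair, with r of −0.472 to 0.325 to the other members. Within linseed livers (n = 8) Hsd17b12 had r of 0.464 to 0.745 with Fads1, Fads2, Elovl2 and Elovl5, and −0.836 with Fads3. Within palm livers (n = 10) these were −0.047 to 0.458 and −0.410. The values within a diet were not tested. Fads3, the gene next to Fads2, had r = −0.472 with it (adjusted p = 0.113). All pairs share the arrays and their scaling. How often pairs of genes outside the members would pass was not measured, so the count of 11 of 36 has no background share beside it.

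**Figure D4:**
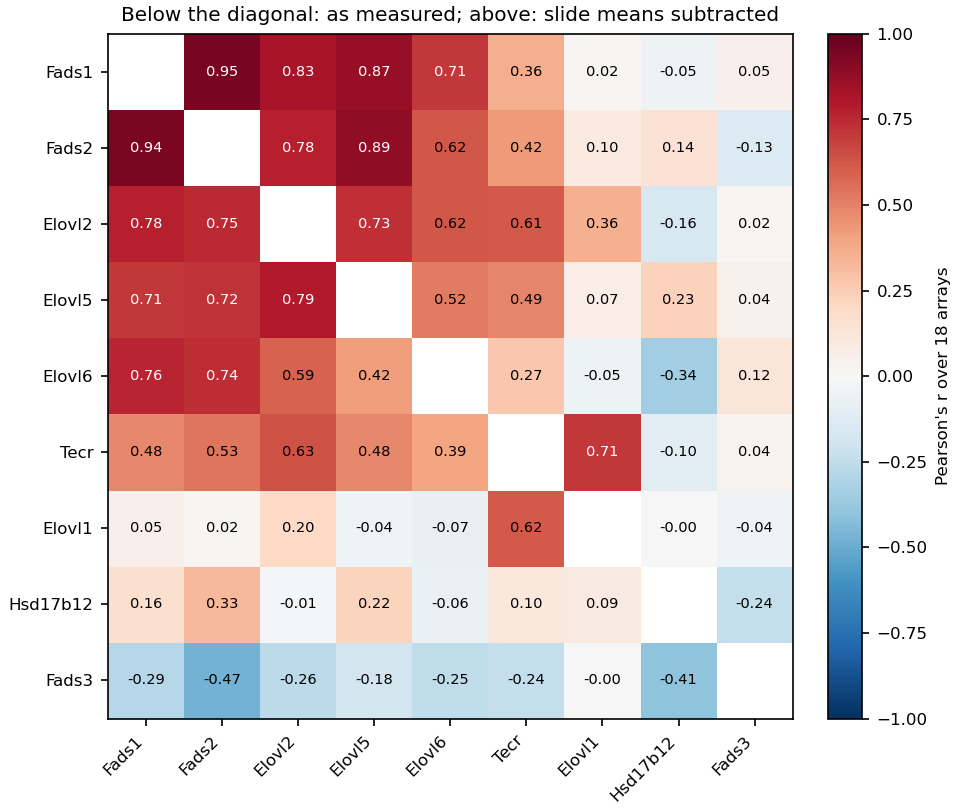
Pearson's r between member genes over the 18 livers with marked spots kept, as colour and number. Values below the diagonal are as measured, and those above it are after slide means were subtracted. Fads1, Fads2, Elovl2 and Elovl5 form a block of 0.71 to 0.95, and the values of Hsd17b12 and Fads3 with other members lie between −0.47 and 0.33.

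Genes outside the pathway whose pattern over the 18 livers was most like that of a member were named by r after slide means were subtracted, among 16665 probes well above background on all arrays. For Fads1 they were Acss2, an acetyl-CoA synthetase (r = 0.959), Rdh11, a retinol dehydrogenase (0.958), and Pdk1, a kinase of pyruvate dehydrogenase (0.953). For Fads2 they were Rdh11 (0.946), Lss, the lanosterol synthase (0.920), and Pstpip2 (0.917). For Elovl5 they were Entpd2 (0.915), Pgd of the pentose phosphate pathway (0.907) and Gbe1, the glycogen branching enzyme (0.903). For Elovl6 they were Acaca, an acetyl-CoA carboxylase (0.915), Arhgap21 (0.904) and Klk1b5 (0.879). As measured, with slide means not subtracted, r was 0.830 to 0.944 for the genes named for Fads1 and Fads2. For those of Elovl5 it was 0.494 (Entpd2), 0.905 (Pgd) and 0.659 (Gbe1). For those of Elovl6 it was 0.907 (Acaca), 0.722 (Arhgap21) and 0.720 (Klk1b5). The named genes for Fads1, Fads2, Elovl5 and Elovl6 did not pass the diet comparison. For Hsd17b12 they were Aldh3a2, a fatty aldehyde dehydrogenase (0.941), Slc4a4, a bicarbonate transporter (0.941), and Abcc3, which exports bile acids and glucuronides (0.937). Diet means were not subtracted, so the choice by likeness to Hsd17b12 favoured genes that differ between the diets. All 3 named genes passed the diet comparison with marked spots kept, which is therefore no separate result. Their differences were 0.94 (adjusted p = 0.00218), 0.50 (adjusted p = 0.0438) and 1.06 (adjusted p = 0.000148). Within a diet their r with Hsd17b12 was lower, at 0.731, 0.532 and 0.365 in linseed livers and 0.643, 0.492 and 0.478 in palm livers.

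The other genes of the pathway were described from lists. Of the remaining elongation genes (Elovl3, Elovl4, Elovl7 and the dehydratases Hacd1 to Hacd4) 4 of 7 could be tested and 0 passed in limma (1 at an unadjusted p under 0.05). Hacd1 had the smallest p, at 1.99 ± 0.16 in linseed livers and 1.78 ± 0.17 in palm livers (SD, n = 8 and 10, difference 0.21 ± 0.083, adjusted p = 0.336). Hacd2, a dehydratase of the same cycle as Hsd17b12, differed by 0.076 ± 0.090 (adjusted p = 0.833), and Hacd3, with marked spots kept, by 0.067 ± 0.085 (adjusted p = 0.84).

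Another list held the delta-9 desaturases, electron transfer proteins that serve desaturases, and the genes Fads6 and Degs1. Of its 11 genes 7 could be tested and 0 passed (1 at an unadjusted p under 0.05). Scd1, the main delta-9 desaturase of liver, was tested only with marked spots kept, where it had 6.38 ± 0.52 in linseed livers and 7.23 ± 0.40 in palm livers (SD, n = 8 and 10). Its difference of −0.84 ± 0.20, 0.56-fold, missed the threshold (adjusted p = 0.0532). Scd3 differed by −0.79 ± 0.29 (adjusted p = 0.302) and Cyb5a, the cytochrome b5 that passes electrons to the desaturases, by 0.12 ± 0.059 with marked spots kept (adjusted p = 0.49).

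The peroxisomal genes that shorten the last intermediate to DHA held the 1 call among these lists. Acaa1b, a peroxisomal thiolase, rose to 6.91 ± 0.20 in linseed livers, against 6.15 ± 0.24 in palm livers, a difference of 0.76 ± 0.12 (SD of the means with n = 7 and 8, SE of the difference, limma adjusted p = 0.00477, and 0.00752 when slide was a fixed block). It was 1 of 7 tested genes of 10, where 0.753% of all probes were called, and the list was chosen with earlier results known. The median difference of the 7 genes was 0.29, beside −0.00051 over all probes, and 6 of 7 lay above 0, as did 49.8% of all probes. With marked spots kept 10 genes were tested and 2 rose: Acaa1b (0.67 ± 0.11, adjusted p = 0.00559) and Hsd17b4, the D-bifunctional protein (0.30 ± 0.067, adjusted p = 0.038, but 0.0533 when slide was a fixed block). Over all probes, 0.907% were called with marked spots kept and no block. With marked spots left out, the count of calls was 0 without slide 3, and 0 without slides 4 and 5.

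The other lists held no call, with 0, 2 and 1 genes at an unadjusted p under 0.05 in the order given here. Of the genes that move polyunsaturated acyl chains into phospholipids 5 of 11 were tested, and Mboat7, which places arachidonate in phosphatidylinositol, had the smallest p (0.12 ± 0.077, adjusted p = 0.631). Of the regulators 10 of 12 were tested. Ppara, the receptor that senses fatty acids, differed by 0.29 ± 0.086 (adjusted p = 0.16) and, by a brighter probe with marked spots kept, by 0.15 ± 0.069 (adjusted p = 0.438), and Srebf1, a known regulator of Fads1, Fads2 and Elovl6, by 0.096 ± 0.24 (adjusted p = 0.932). Among the genes that neighbour the Fads genes 4 of 8 were tested, with Fth1, ferritin heavy chain, at 0.18 ± 0.071 (adjusted p = 0.329). The lists' values are drawn in the plot of pathway genes.

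**Figure D5:**
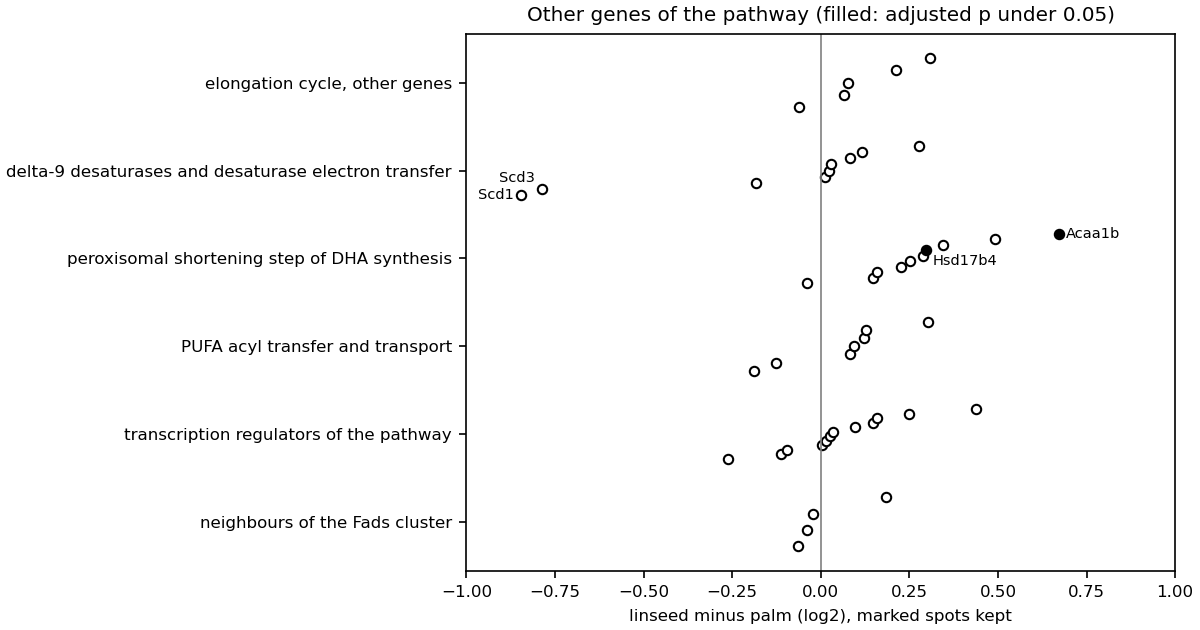
Difference between linseed and palm livers on the log2 scale with marked spots kept (horizontal axis) for the tested genes of 6 lists around the pathway, 1 point per gene and filled where the adjusted p was under 0.05. Acaa1b at 0.67 and Hsd17b4 at 0.30 are the 2 filled points, and Scd1 and Scd3 lie farthest left.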

How the data were processed

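Liver RNA of 18 mice was measured on 1-colour Agilent arrays, 1 per mouse, and each sample's title gave its diet. Per the file headers, the authors extracted spot intensity values with Agilent Feature Extraction 9.5.3.1, and the processed intensity is background-subtracted within the array. The deposited flags of spots (other values, 0 or 1) are that software's. The authors also deposited a table of log2 values; its scaling and filter are not given in the sources used here, so it was an alternative only. The submitters' processing notes name limma.

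Each value is log2 of a processed signal less that array's log2 75th percentile over non-control spots. Marked spots were left out, saturated spots kept, and spots of a probe averaged. Probes entered the test with 8 or more arrays well above background and 6 or more values per diet. Diets were compared per probe with limma 3.58.1 in R 4.3.3 (lmFit, eBayes, two-sided, Benjamini-Hochberg over all tested probes, threshold 0.05), tested on simulated data. A gene of several probes is given by its brightest tested probe in lists and correlations. Correlations used marked spots kept and 100000 permutations (Python 3.11.15, numpy 2.4.6). Slides follow the headers' barcodes; the 3 arrays of slide 3 gave none and were taken as 1 slide from their scan group. Replicate numbers were not taken as pairs in the main fit. Of 8 pair correlations 5 were over 0.1, each between arrays of the same slide, and pairs on different slides were at 0.031 and −0.21. Members and lists were chosen with earlier results of these data known. Named genes were all members, up to 3 called genes of each list or its gene of smallest p, Scd1, Srebf1, Ppara, Hsd17b4, Hacd2, Hacd3 and Cyb5a, and the 3 genes most like each of 5 members; Scd3 and the marker Cfd were named after their values were seen, and 1 gene of the rule is not reported here. Alternatives were other scalings, filters, background correction, variance models, probe rules, slide or replicate number as a block, and left-out arrays or slides; leaving out slide 3, and slides for the correlations, was added after seeing the data.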

Additional observations from a re-analysis of the deposited data

Results flagged for a closer look

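Of 22 groups of arrays checked (11 member probes on 2 diets), 1 held an array far from the rest, where chance flags about 1 in 20. The brighter Elovl1 probe had 4.98 on palm replicate 3, with the next palm liver at 4.55. The dimmer Elovl1 probe was highest on the same palm array as well, at 1.29. Without it, the diet difference of the brighter probe was 0.13 and did not pass.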

How the results depend on the processing

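The direction of Fads1, Elovl2, Elovl6, Hsd17b12, the dimmer Fads2 probe and the brighter Elovl1 probe was the same in all 35 to 38 settings run for each. Only Hsd17b12 passed in any setting: 1 member was called with slide as a fixed or a random block (marked spots left out or kept), well above background on all arrays and with trended, robust variance, against 0 otherwise; its adjusted p ranged from 0.0175 to 0.615. Reversed differences were all within 1 SE of 0. Fads2's brighter probe was at 0.00097 with the mean of its probes, and at −0.18 to 0.022 without 1 array. Fads3 was at −0.011 with the percentile over unmarked spots, −0.035 and −0.000497 with slide as a fixed or random block (−0.035 and −0.00025 with marked spots kept), −0.080 without slide 1, −0.030 without slides 4 and 5, and −0.078 to 0.19 without 1 array. Elovl1's dimmer probe was at −0.0022 with normexp, −0.0092 with quantile normalization, −0.034 with unmarked spots, −0.026 and −0.0086 with slide blocks (−0.026 and −0.0085 with marked spots kept), −0.047 with the replicate block, −0.038 in the authors' values, −0.052 without slides 4 and 5, and −0.053 to 0.073 without 1 array. Elovl5 was at −0.036 with the replicate block, −0.045 with array weights, −0.067 without slides 4 and 5, and −0.055 to 0.18 without 1 array. Tecr was at 0.019 with median scaling, 0.0092 with a fixed block, 0.099 without slide 1, 0.0011 with marked spots kept (0.024 and 0.012 with blocks), and −0.081 to 0.050 without 1 array. The cause of these turns was not tested.

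Over all probes, 147 calls became 68 with normexp, 50 with the percentile over unmarked spots, 49 with no filter, 253 with a random slide block (226 and 312 with fixed and random blocks and marked spots kept), 26 without slide 1, 32 without slide 3 and 26 without slides 4 and 5. Without 1 array the count was 60 to 185: 68, 68, 60 and 77 without linseed replicates 2, 3, 5 and 7, and 80, 67, 93, 91 and 87 without palm replicates 1, 5, 6, 9 and 10. The replicate number as a block gave 20 calls, with pair correlations of −0.21 to 0.46; it changed no member's call. The delta-9 list had 1 call with a random block and marked spots kept. The peroxisomal list had 0 with the replicate block, without slide 3 or without slides 4 and 5, 2 with marked spots kept, and 3 with a random block and marked spots kept. Of 11 correlated pairs, 7 passed after slide means were subtracted and 3 without slides 4 and 5.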

Other observations

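Regulators and Scd1 were set beside 6 members across the 18 livers, a family of 30 pairs chosen after the correlations between members had been seen, with marked spots kept and p-values from 100000 permutations. Insig1, which retains the SREBP escort protein in the endoplasmic reticulum, varied with Fads2 (r = 0.780, rho 0.835, adjusted p = 0.002775 and 0.00195; r = 0.894 after slide means were subtracted, adjusted p = 0.0024), and with Fads1, Elovl2 and Elovl5 at r of 0.743 to 0.753 (adjusted p = 0.002775 to 0.00306). Its r with Elovl6 was 0.334 (adjusted p = 0.284). Srebf1 passed with none of the 6 members, with r of 0.027 to 0.448. After slide means were subtracted, Srebf1 had r of 0.540 to 0.632 with Fads1, Fads2, Elovl2 and Elovl5 (adjusted p = 0.0567 to 0.108). With Elovl6 and Hsd17b12 it then had r of 0.197 and 0.106, and still no pair of Srebf1 passed. Ppara varied with Hsd17b12 (r = 0.760, rho 0.783, adjusted p = 0.002775 and 0.00195; r = 0.633 without the 2 livers farthest from the median), more closely in linseed livers (r = 0.945, n = 8) than in palm livers (r = 0.489, n = 10), a difference that was not tested. After slide means were subtracted the pair had r = 0.754 (adjusted p = 0.0216). Diet means were not subtracted in any of the 30 pairs. Hsd17b12 and this Ppara probe both had higher means on linseed oil, by 0.35 and 0.15. Their r over all 18 livers therefore also holds the diet difference, and its share was not tested. Scd1 varied with Elovl6 (r = 0.683, rho 0.662), Elovl2 (r = 0.657, rho 0.651) and Fads1 (r = 0.603, rho 0.624), with adjusted p of 0.012, 0.0171 and 0.0338 for r, and these pairs did not pass after slide means were subtracted (adjusted p = 0.0567, 0.0567 and 0.111).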
